A study of Homo sapiens with 5 samples.

Results

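The heat shock protein (HSP) and DNAJ genes encode the chaperones that bind unfolded or partly folded proteins, and they were followed here in RPE1 cells after doxorubicin treatment. RPE1 is an established human line of telomerase-immortalised retinal pigment epithelial cells, and doxorubicin is an anthracycline that intercalates into DNA and poisons topoisomerase II. RNA-seq of poly-A RNA was made from wild-type RPE1 cells kept for 18 h with the solvent DMSO (2 libraries), with 0.2 μM doxorubicin (2 libraries) or with 0.34 μM doxorubicin (1 library). The doses are those of the sample names, and the written treatment protocol prints larger values for both. Members were chosen by symbol: any row of the count table named DNAJA, DNAJB or DNAJC with a number, or HSPA, HSPB, HSPD, HSPE, HSPH, HSP90A or HSP90B with or without further characters. This gave 79 of 26485 genes, 46 DNAJ and 33 HSP. The name pattern also takes in HSPBP1 and HSPBAP1, a nucleotide exchange factor of HSP70 and a protein named for its binding to HSPB1, and HSPB11, which is a component of intraflagellar transport and not a small heat shock protein.

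HSP70 proteins (HSPA) bind and release stretches of unfolded protein in a cycle of ATP binding and hydrolysis. J-domain proteins (DNAJ) bring them substrates and start the hydrolysis, and nucleotide exchange factors such as the HSP110 proteins end the cycle. HSP90 proteins act later, on signalling kinases and receptors, while the small heat shock proteins (HSPB) hold unfolded proteins without using ATP and the chaperonin of HSPD1 and HSPE1 folds proteins inside mitochondria. Under heat or proteotoxic stress, heat shock factor 1 (HSF1) raises many of these genes through repeats of a short sequence, the heat shock element, and the unfolded protein response does the same for chaperones of the endoplasmic reticulum.

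A search for the element with 3 units (GAA NN TTC NN GAA, where N is any base, either strand) in the RefSeq promoters of GRCh38.p14, each 250 bases before to 50 bases after an annotated start, found it in 7 of the 66 members with a promoter in that table (10.6%). Over all 27305 genes of the table the share was 0.608%, and over all 35116 promoters it was 0.49%. The matches are shown because they mark the members that carry the sequence HSF1 is known to bind, among them 3 of the 5 most counted members. Capitals mark the matches, in HSPD1 2 overlapping ones.
DNAJA1, chr9:33025264-33025288, plus strand: gcgcgccgggcgGAACTTTCCAGAA
DNAJB6, chr7:157336861-157336897, plus strand: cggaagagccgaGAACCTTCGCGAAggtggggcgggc
HSP90AA1, chr14:102087108-102087144, minus strand: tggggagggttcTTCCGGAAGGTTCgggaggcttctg
HSP90AB1, chr6:44247766-44247802, plus strand: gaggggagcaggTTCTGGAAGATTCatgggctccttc
HSPA6, chr1:161524454-161524490, plus strand: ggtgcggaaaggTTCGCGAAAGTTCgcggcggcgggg
HSPA8, chr11:123062342-123062378, minus strand: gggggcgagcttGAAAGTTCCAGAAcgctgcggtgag
HSPD1, chr2:197500056-197500090, minus strand: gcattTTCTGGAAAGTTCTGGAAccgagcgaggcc

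The shorter element with 2 units (GAANNTTC), which is part of every match of the longer one, was in 17 of the 66 members (25.8%), against 8.21% of genes and 6.77% of promoters. The endoplasmic reticulum stress element (CCAAT and CCACG with NNNNNNNNN between them, either strand), through which the unfolded protein response is known to act, was in 2 members (3.03%), against 0.0916% of genes. Both members with it are chaperones of the endoplasmic reticulum, and their windows are shown for that reason.
HSPA5, chr9:125241379-125241421, minus strand: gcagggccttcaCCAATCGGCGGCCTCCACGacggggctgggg
HSP90B1, chr12:103930204-103930246, plus strand: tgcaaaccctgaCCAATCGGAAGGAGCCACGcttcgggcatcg

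The libraries held between 23773061 and 36725345 counts. The epithelial keratins KRT8 and KRT18, and MITF and OTX2, which are transcription factors of retinal pigment epithelium, were measured in every library. The visual cycle genes RPE65 and RLBP1 and the pigment gene TYR were at or near 0. BEST1, PMEL and SERPINF1 were also low in DMSO, with means of 0.77, 0.23 and 0.78 CPM. BEST1 (log2 fold change 1.88, SE 0.59, edgeR adjusted p = 0.0823) and PMEL (2.29, SE 0.48, edgeR adjusted p = 0.0264) were higher in each doxorubicin library. For SERPINF1 the treatments overlapped. The summed level of the 10 epithelial and pigment markers, mostly the keratins, was 784 and 638 CPM in DMSO and 1249, 1051 and 1193 CPM with doxorubicin, without overlap, and its part in the results was not tested. No marker of this list was called by edgeR, and DESeq2 called KRT8 (log2 fold change 0.87, SE 0.15, edgeR adjusted p = 0.0133, DESeq2 adjusted p = 5.1e-09). Of 11 markers of other cell types, COL1A1 and CD68 were above 40 CPM (read counts scaled to the size of the library, TMM-normalised) in every library, and CD3E had no count. None was called by edgeR, and DESeq2 called PTPRC, at 0.191 and 0.274 CPM in DMSO and 0.967, 2.20 and 1.98 CPM with doxorubicin (log2 fold change 2.86, SE 0.56, edgeR adjusted p = 0.0212, DESeq2 adjusted p = 0.000957). Replicates 2 of DMSO and of 0.2 μM were the lowest 2 libraries for COL1A1. The 3 doxorubicin libraries were compared as 1 group with the DMSO libraries by edgeR's quasi-likelihood test across the whole table, and a gene was called at a Benjamini-Hochberg adjusted p under 0.01. By this test 11 of 15 p53 targets were higher and 18 of 20 cell cycle genes were lower after doxorubicin. The p-values measure the spread between these libraries, which the study's methods call biological replicates.

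A total of 64 members passed the low-count filter, 37 DNAJ and 27 HSP, and 15 did not. The untested members had at most 11 counts in any library. They included HSPA6, an HSP70 gene known for being nearly silent without stress, with 0 and 2 counts in DMSO, 8 and 2 counts at 0.2 μM and 11 counts at 0.34 μM, and its neighbouring pseudogene HSPA7 with at most 2. DNAJA1P5, DNAJB3, DNAJB8, DNAJC5G and HSPB3 had 0 counts in all 5 libraries, which allows a level of up to 0.126 CPM in the shallowest library and 0.0817 CPM in the deepest (3 counts, counting error only). The others were DNAJA4, DNAJB7, DNAJB13, DNAJC5B, DNAJC12, HSPB9 and the pseudogenes HSP90AB4P and HSP90B2P.

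In DMSO, the mean level per kilobase of exon was highest for HSPA8, the constitutive HSP70 of the cytosol, at 596 CPM per kb. HSP90AA1 (560.5 CPM per kb) and HSP90AB1 (515 CPM per kb), the 2 cytosolic HSP90 genes, came next, then the small heat shock protein HSPB1 (416 CPM per kb). HSP90B1 and HSPA5, the HSP90 and HSP70 of the endoplasmic reticulum, were at 328 and 193 CPM per kb. The single DMSO libraries overlapped among the first 4: HSPA8 was at 662 and 530.4, HSP90AA1 at 465 and 656, HSP90AB1 at 486 and 544 and HSPB1 at 522 and 310.1 CPM per kb. In the doxorubicin libraries the mean level was 604 CPM per kb for HSPB1 and 259.5 CPM per kb for HSP90AA1, and for HSPA8 it was 535 CPM per kb. HSPB1 was above HSPA8 in 0.2 μM replicate 1 (659.8 against 505 CPM per kb) and in the 0.34 μM library (736 against 535 CPM per kb), but below it in 0.2 μM replicate 2 (416 against 567 CPM per kb).

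Few of the chaperone genes passed the test after doxorubicin. Of the 64 tested members, DNAJB2, HSPB8 and HSPA4L rose and DNAJC9 fell, 4 calls in all (6.25%), against 4.02% of the 14187 genes tested. The share called higher over all genes was 1.29% and the share called lower 2.73%. The median log2 fold change of the members was 0.015, against 0.013 over all genes tested, with 33 members above 0 and 31 below. For 43 members the log2 fold change was within 0.5 of 0, and for 10 of 64 it was over 1 in size, against 15.4% of all genes. In 28 members (43.8%) the libraries of both treatments did not overlap, 12 higher and 16 lower, against 47.7% of all genes, 24.3% higher and 23.4% lower. By count and by median, the members stood near the background of the whole table.

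**Figure D1:**
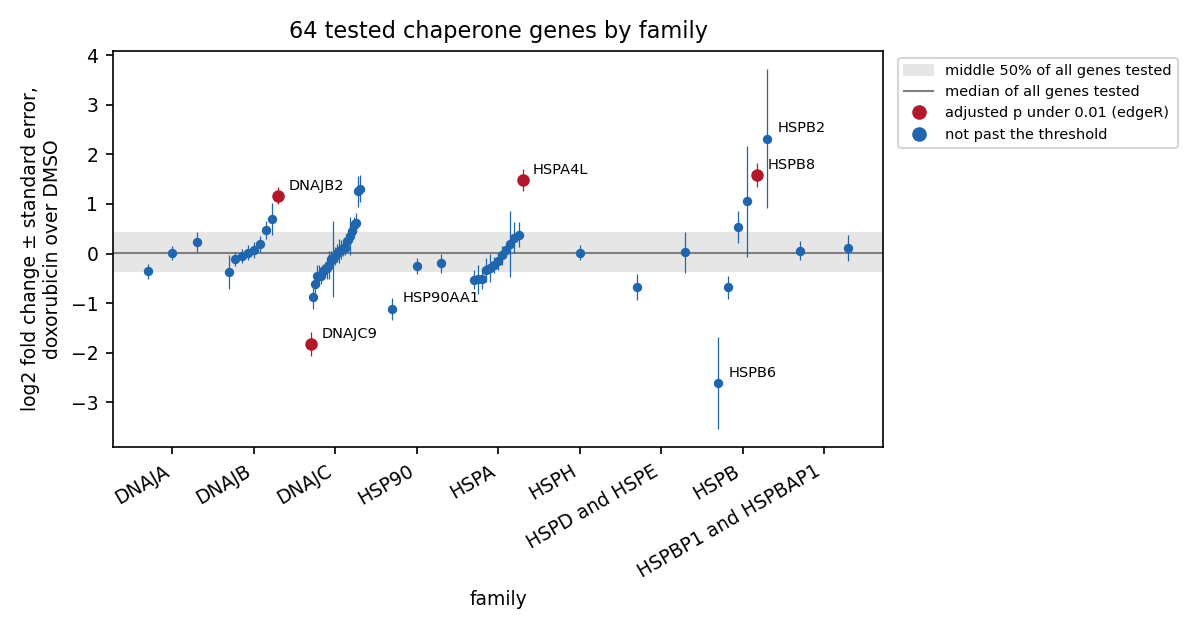
Log2 fold change of doxorubicin over DMSO (y axis, points with standard errors) for the 64 tested chaperone genes, ordered within each family (x axis), with the middle 50% of all genes tested as a grey band. Most points lie in or near the band around 0, and the 4 called genes are drawn in red: DNAJC9 at -1.83, DNAJB2 at 1.16, HSPA4L at 1.49 and HSPB8 at 1.58.

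DNAJC9 is a J-domain protein that binds histones H3 and H4 and hands them to HSP70 during their supply to DNA. It was at 74.5 and 125 CPM in the DMSO libraries, at 27.8 and 31.5 CPM with 0.2 μM doxorubicin and at 24.6 CPM with 0.34 μM. All doxorubicin libraries were below both DMSO libraries, and DMSO replicate 2 was far above DMSO replicate 1. The mean went from 99.5 ± 35.4 CPM (SD, n = 2) to 28.0 ± 3.42 CPM (SD, n = 3), a fall of 3.56-fold (log2 fold change -1.83, SE 0.24, edgeR adjusted p = 0.00581). Beside it, the summed level of the 20 cell cycle genes was 2584 and 3417 CPM in DMSO and between 494 and 745 CPM with doxorubicin, and that list's median log2 fold change was -2.95, with DMSO replicate 2 again the highest library. The part of cell cycle state in the DNAJC9 result was not tested. In bulk RNA, fewer cells that express a gene and less RNA per cell cannot be told apart. The gene (chromosome 10, 73232272 to 73247255, GRCh38.p14) overlaps FAM149B1 in the annotation.

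DNAJB2 is a J-domain protein that also binds ubiquitin chains and is known for directing HSP70 clients to the proteasome. It was at 32.0 and 30.6 CPM in DMSO, at 69.7 and 61.2 CPM with 0.2 μM and at 79.8 CPM with 0.34 μM. Every doxorubicin library was well above both DMSO libraries, which lay close together. The rise was 2.24-fold (log2 fold change 1.16, SE 0.17, edgeR adjusted p = 0.00827), from 31.3 ± 1.0 CPM (SD, n = 2) to 70.2 ± 9.32 CPM (SD, n = 3). DNAJB2 (chromosome 2, 219279366 to 219286895) overlaps no other gene of the RefSeq annotation used.

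HSPB8 is a small heat shock protein that works with BAG3 and HSP70 to send misfolded proteins to autophagy. It was at 11.6 and 8.77 CPM in DMSO, at 27.1 and 27.4 CPM with 0.2 μM and at 37.1 CPM with 0.34 μM. The groups did not overlap, and the 0.34 μM library was the highest. The rise was 2.99-fold (log2 fold change 1.58, SE 0.24, edgeR adjusted p = 0.00886), the largest of the 3 rises, from 10.2 ± 2.02 CPM (SD, n = 2) to 30.5 ± 5.67 CPM (SD, n = 3). Its partner BAG3 had a log2 fold change of 0.29 (SE 0.16, edgeR adjusted p = 0.271). HSPB8 (chromosome 12, 119178931 to 119194746) overlaps the antisense gene HSPB8-AS1. It was the only member called by edgeR with the 2-unit heat shock element, which had 2 matches in the searched promoter. The 250 bases before the start of HSPB8 are shown, with the match that lies within them in capitals.
HSPB8, chr12:119178681-119178930, plus strand: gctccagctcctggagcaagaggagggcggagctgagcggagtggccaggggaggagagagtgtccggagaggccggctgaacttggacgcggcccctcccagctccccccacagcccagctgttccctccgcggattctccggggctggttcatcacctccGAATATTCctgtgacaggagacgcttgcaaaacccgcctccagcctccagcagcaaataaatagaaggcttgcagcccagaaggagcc

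HSPA4L belongs to the HSP110 branch of the HSP70 family, whose proteins exchange the nucleotide of HSP70 and keep aggregates in solution. It was at 26.6 and 28.4 CPM in DMSO, at 60.6 and 95.5 CPM with 0.2 μM and at 74.9 CPM with 0.34 μM. The doxorubicin libraries were all above both DMSO libraries but spread more widely. The rise was 2.80-fold (log2 fold change 1.49, SE 0.22, edgeR adjusted p = 0.00902), from 27.5 ± 1.28 CPM (SD, n = 2) to 77.0 ± 17.5 CPM (SD, n = 3). The closest relatives did not pass the test: HSPA4 was at 215 and 243 CPM in DMSO and 192, 273 and 203 CPM with doxorubicin (log2 fold change -0.04, SE 0.20), and HSPH1 at 168 and 193 CPM against 171, 196 and 182 CPM (log2 fold change 0.02, SE 0.15). For HSPA4 and HSPH1 the treatments overlapped. The counts of HSPA4L divided by those of HSPA4 were 0.124 and 0.117 in DMSO and 0.315, 0.349 and 0.369 with doxorubicin, and this ratio was chosen after the values were seen. HSPA4L (chromosome 4, 127781796 to 127840733) overlaps only a pseudogene and an uncharacterised gene, neither of them in the count table.

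The 4 calls stood close to the threshold in a design of 2 against 3 libraries. Without any single library the count of called members was 0 or 1: DNAJC9 was called without DMSO replicate 1, and none of the 4 was called without DMSO replicate 2, without either 0.2 μM library or without the 0.34 μM library, while the signs held and the adjusted p of each stayed at or under 0.0451. Over all genes the count of calls also fell in each of these smaller fits, from 571 with all libraries. At an adjusted p under 0.05 edgeR called 7 members, against 13.6% of all genes, adding HSP90AA1, DNAJC18 and DNAJC6.

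DESeq2 on the same libraries called 8 members (12.5%), against 14.6% of all genes: the 4 above and HSP90AA1, DNAJC18, DNAJC6 and DNAJC30. Of the 8, 6 were higher and 2 lower, against 6.59% and 8.02% of all genes. HSP90AA1, the stress-responsive HSP90 of the cytosol, was at 1803 and 2541 CPM in DMSO, at 937 and 1193 CPM with 0.2 μM and at 887 CPM with 0.34 μM. Each doxorubicin library was below both DMSO libraries, of which replicate 2 was the higher, as it was for DNAJC9. The log2 fold change was -1.11 (SE 0.22), a mean 2.16-fold lower, with an adjusted p of 0.0221 by edgeR's quasi-likelihood test and 4.39e-05 by DESeq2. HSP90AB1, the constitutive HSP90 of the cytosol, was at 1449 and 1622 CPM in DMSO and at 1221, 1586 and 1200.0 CPM with doxorubicin (log2 fold change -0.20, SE 0.19, edgeR adjusted p = 0.521). HSP90AA1 counts exceeded HSP90AB1 counts in both DMSO libraries, by ratios of 1.24 and 1.57, and were below them in all doxorubicin libraries, at 0.767, 0.752 and 0.739. No test was made on this ratio, which was also chosen after the values were seen. It is not scaled to exon length, which is 3876 bases for HSP90AA1 and 2980 for HSP90AB1. Per kb of exon, HSP90AA1 was below HSP90AB1 in DMSO replicate 1 (465 against 486 CPM per kb). It was above HSP90AB1 in DMSO replicate 2 (656 against 544 CPM per kb) and below it in all doxorubicin libraries. HSP90AA1 overlaps WDR20 in the annotation.

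DNAJC18, a J-domain protein anchored in the membrane of the endoplasmic reticulum, was at 19.3 and 25.03 CPM in DMSO, at 41.1 and 72.6 CPM with 0.2 μM and at 50.9 CPM with 0.34 μM (log2 fold change 1.31, SE 0.28, edgeR adjusted p = 0.0276, DESeq2 adjusted p = 0.000175). DNAJC6, the auxilin that recruits HSPA8 to strip clathrin from vesicles, was at 31.9 and 26.8 CPM in DMSO and at 48.9, 98.9 and 62.0 CPM with doxorubicin (log2 fold change 1.25, SE 0.31, edgeR adjusted p = 0.0447). In both genes, and in HSPA4L, the groups did not overlap and replicate 2 of 0.2 μM was the highest library. DNAJC30, a J-domain protein of mitochondria, was at 18.8 CPM in both DMSO libraries and at 28.8, 26.9 and 28.6 CPM with doxorubicin (log2 fold change 0.58, SE 0.15, edgeR adjusted p = 0.0508, DESeq2 adjusted p = 0.00678). Its spread within each treatment was small beside the difference between them.

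**Figure D2:**
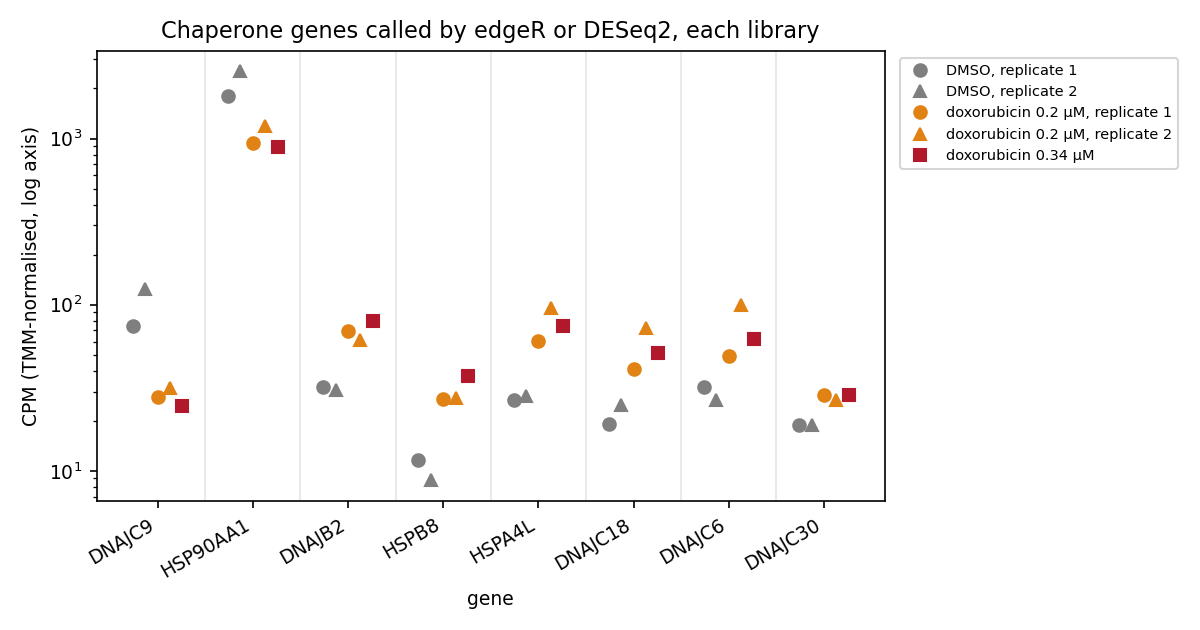
Level of the 8 chaperone genes called by edgeR or DESeq2 in each of the 5 libraries (y axis, CPM on a log scale), with a marker for each library. In all 8 the doxorubicin libraries lie apart from the DMSO libraries, below them for DNAJC9 and HSP90AA1 and above them for the other genes.

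The cytosolic genes best known as targets of HSF1 did not pass edgeR's test. HSPA1A and HSPA1B, the inducible HSP70 pair, were at 184 and 123 CPM and at 191 and 146 CPM in DMSO. With doxorubicin they were at 224, 123 and 228 CPM and at 243, 158 and 255 CPM. Replicate 2 of each treatment was low for both genes, so that the treatments overlapped, and the log2 fold changes were 0.32 (SE 0.31) and 0.38 (SE 0.25). The 2 genes are almost identical in sequence, and the sources used here do not say how reads that map to both were counted. HSPA8 was at 1787 and 1432 CPM in DMSO and at 1362, 1530.1 and 1443 CPM with doxorubicin (log2 fold change -0.16, SE 0.17). DNAJB1, the J-domain partner of the inducible HSP70, was at 117 and 144 CPM against 144, 119.7 and 147 CPM (log2 fold change 0.07, SE 0.17). For HSPA8 and DNAJB1 the libraries overlapped. DNAJA1, another cytosolic partner of HSP70, was below both DMSO libraries (266 and 231 CPM) in the doxorubicin libraries (179.8, 215 and 185 CPM), with a log2 fold change of -0.36 (SE 0.16, edgeR adjusted p = 0.175). HSPB1, which holds unfolded proteins and binds actin, was at 516 and 307 CPM in DMSO and at 653, 412 and 728 CPM with doxorubicin, again overlapping, with both replicates 2 low (log2 fold change 0.54, SE 0.32, edgeR adjusted p = 0.305).

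Of the 6 tested members with a 3-unit heat shock element in the promoter, 5 had a log2 fold change below 0 and 1 above. Over all genes 51.1% were above 0. The median of the 6 was -0.28, with no edgeR call, and DESeq2 called HSP90AA1 lower (DESeq2 adjusted p = 4.39e-05). The 51 tested members with a promoter and no match had a median of 0.055, with 3 called higher and 1 lower. The 2-unit element, present in these 6 too, gave another picture. Of its 14 tested members, 8 were above 0 and 6 below, with a median of 0.044, 1 called higher and 0 lower. The 43 tested members with a promoter and no 2-unit match had a median of 0.016, with 2 called higher and 1 lower. No difference between these groups was tested. HSF1 itself had a log2 fold change of 0.40 (SE 0.16, edgeR adjusted p = 0.146). None of the 8 tested heat shock factors and regulators was called by edgeR. DESeq2 called 2 of the 8 higher (25%), against 6.59% of all genes called higher. These were HSF4 (log2 fold change 0.91, SE 0.24) and HSF2BP (log2 fold change 1.14, SE 0.22).

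**Figure D3:**
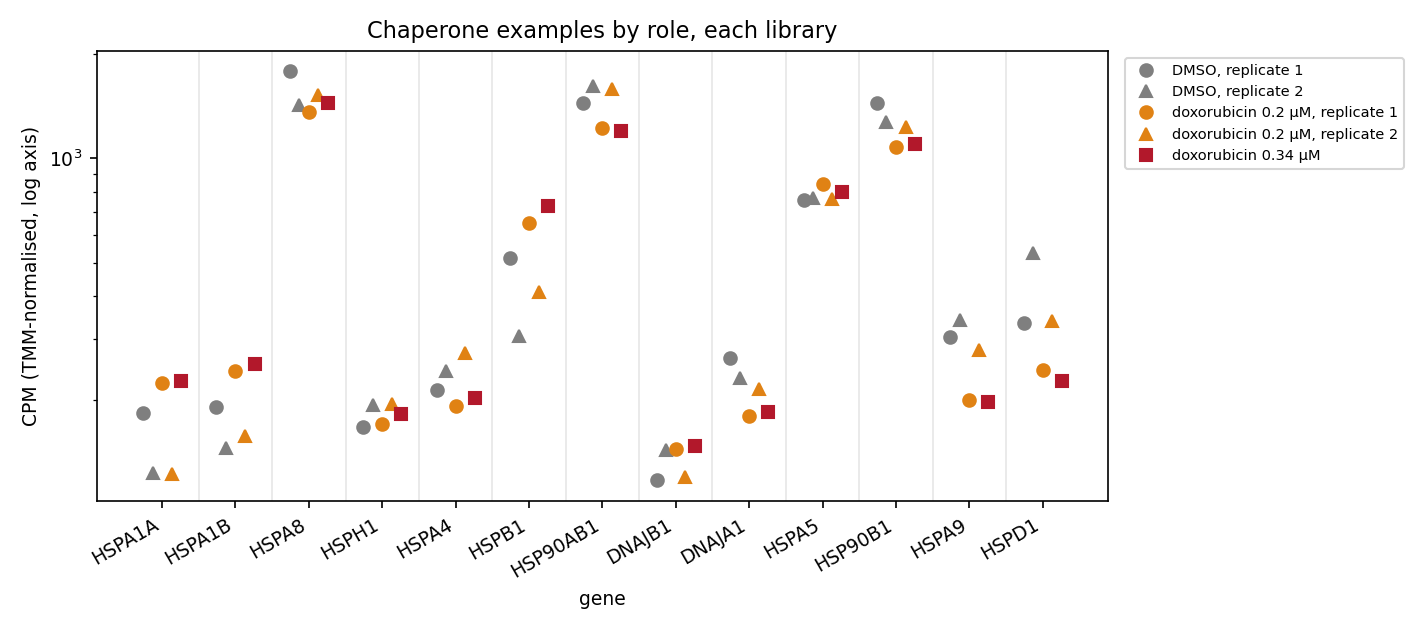
Level in each of the 5 libraries (y axis, CPM on a log scale) of 13 cytosolic, endoplasmic reticulum and mitochondrial chaperone genes (x axis). None was called by edgeR, and in 10 of them the markers of both treatments overlap, while DNAJA1, HSP90B1 and HSPA9 are lower in all doxorubicin libraries. Over all genes tested, 23.4% were lower without overlap and 24.3% higher without overlap.

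In the lumen of the endoplasmic reticulum, none of 8 tested members was called by edgeR or DESeq2, and the median log2 fold change was -0.18. HSPA5 (BiP), the HSP70 of this compartment and a main target of the unfolded protein response, was at 758 and 770.4 CPM in DMSO and at 842, 764 and 801 CPM with doxorubicin (log2 fold change 0.07, SE 0.15). HSP90B1 (GRP94) was at 1444 and 1278 CPM against 1082, 1237 and 1099 CPM (log2 fold change -0.26, SE 0.16, edgeR adjusted p = 0.331). HSPA5 overlapped between treatments and HSP90B1 was lower in each doxorubicin library. DNAJB9, a J-domain protein that represses the stress sensor IRE1 through BiP, was at 10.4 and 10.0 CPM in DMSO and at 13.7, 14.5 and 14.5 CPM with doxorubicin (log2 fold change 0.48, SE 0.18, edgeR adjusted p = 0.122). DNAJC3, a BiP partner, was at 93.7 and 91.3 CPM against 84.1, 67.2 and 71.7 CPM (log2 fold change -0.32, SE 0.15, edgeR adjusted p = 0.212). Both were without overlap, in opposite directions. Among 22 other genes of protein folding and of the unfolded protein response, edgeR called 0 and the median was 0.00049. DESeq2 called 1 of them, MANF, a secreted protein of this response, at 65.8 and 65.0 CPM in DMSO and at 44.3, 47.3 and 40.1 CPM with doxorubicin, lower in each library (log2 fold change -0.57, SE 0.14, edgeR adjusted p = 0.0457, DESeq2 adjusted p = 0.00416).

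Of the 8 mitochondrial members, none was called by edgeR, and the median log2 fold change was -0.012. DESeq2 called 1 of the 8 (12.5%), DNAJC30, whose values are given above, against 14.6% of all genes. HSPA9 (mortalin), the mitochondrial HSP70, was at 304 and 342 CPM in DMSO and at 201, 279.9 and 198 CPM with doxorubicin, lower in every library (log2 fold change -0.51, SE 0.20, edgeR adjusted p = 0.136). HSPD1, the large subunit of the chaperonin, was at 335 and 534 CPM against 245, 339 and 227 CPM (log2 fold change -0.68, SE 0.26, edgeR adjusted p = 0.134). The 0.2 μM replicate 2 was just above DMSO replicate 1 for HSPD1, so the groups overlapped. HSPE1, its cofactor, was at 9.73 and 27.3 CPM in DMSO and at 17.1, 22.6 and 17.0 CPM with doxorubicin (log2 fold change 0.03, SE 0.41), and its sign turned to -0.54 without DMSO replicate 1. HSPD1 counts, not scaled to exon length, were between 13.3 and 34.5 times those of HSPE1, which shares its locus with the readthrough gene HSPE1-MOB4. DNAJA3, a J-domain partner of HSPA9, was at 37.3 and 52.0 CPM against 48.4, 60.8 and 48.6 CPM (log2 fold change 0.24, SE 0.20).

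Among the other large differences, DNAJC2, a ribosome-bound J-domain protein, was lower in all doxorubicin libraries (19.3, 22.3 and 21.0 CPM) than in DMSO (35.8 and 28.0 CPM), with a log2 fold change of -0.61 (SE 0.18, edgeR adjusted p = 0.0656). DNAJC22, at 12.3 and 15.5 CPM in DMSO and at 7.31, 9.19 and 6.23 CPM with doxorubicin, had a log2 fold change of -0.88 (SE 0.24, edgeR adjusted p = 0.0592). Neither gene overlapped between treatments and neither was called by DESeq2.

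The numerically largest differences were in small heat shock proteins with few counts, and they did not pass the test. HSPB2 was at 0.763 and 0.0392 CPM in DMSO, the latter from 1 count, and at 2.32, 0.0832 and 3.61 CPM with doxorubicin (log2 fold change 2.32, SE 1.41, edgeR adjusted p = 0.317). HSPB6, a small heat shock protein known from muscle, was at 5.00 and 0.627 CPM in DMSO and at 0.851, 0.166 and 0.358 CPM with doxorubicin (log2 fold change -2.61, SE 0.93, edgeR adjusted p = 0.111). In both, and in HSPB7 (5.15 and 0.431 CPM in DMSO and 8.70, 0.915 and 7.74 CPM with doxorubicin), replicate 2 of DMSO and of 0.2 μM was far below replicate 1. HSPB2 and HSPB7 were at least 4-fold lower in replicate 2 of both pairs on the log2 CPM scale, as were 1.06% of all genes. DNAJC15, which acts in import into mitochondria, had the same form at higher counts, with 30.9 and 5.72 CPM in DMSO, 23.6 and 6.07 CPM with 0.2 μM and 21.2 CPM with 0.34 μM. HSPA1L, a testis-enriched HSP70, was at 3.55 and 1.25 CPM in DMSO and 3.63, 0.956 and 3.55 CPM with doxorubicin. CRYAB, a small heat shock protein gene that lies beside HSPB2 and overlaps it in the annotation, was at 38.1 and 0.823 CPM in DMSO and at 33.2, 6.69 and 43.1 CPM with doxorubicin. In these genes other than HSPB6 the log2 difference between replicates was larger in both pairs than the log2 fold change between treatments. COL1A1, at 287 and 64.5 CPM in DMSO and at 189, 42.7 and 151 CPM with doxorubicin, was likewise lowest in both replicates 2. The summed level of the 11 markers of other cell types, mostly COL1A1 and CD68, was 389 and 160 CPM in DMSO, 276 and 157 CPM with 0.2 μM and 234 CPM with 0.34 μM, and its part in these results was not tested. Over all 64 tested members, 16 were lower in both replicates 2, 23 were higher in both and 25 were mixed.

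**Figure D4:**
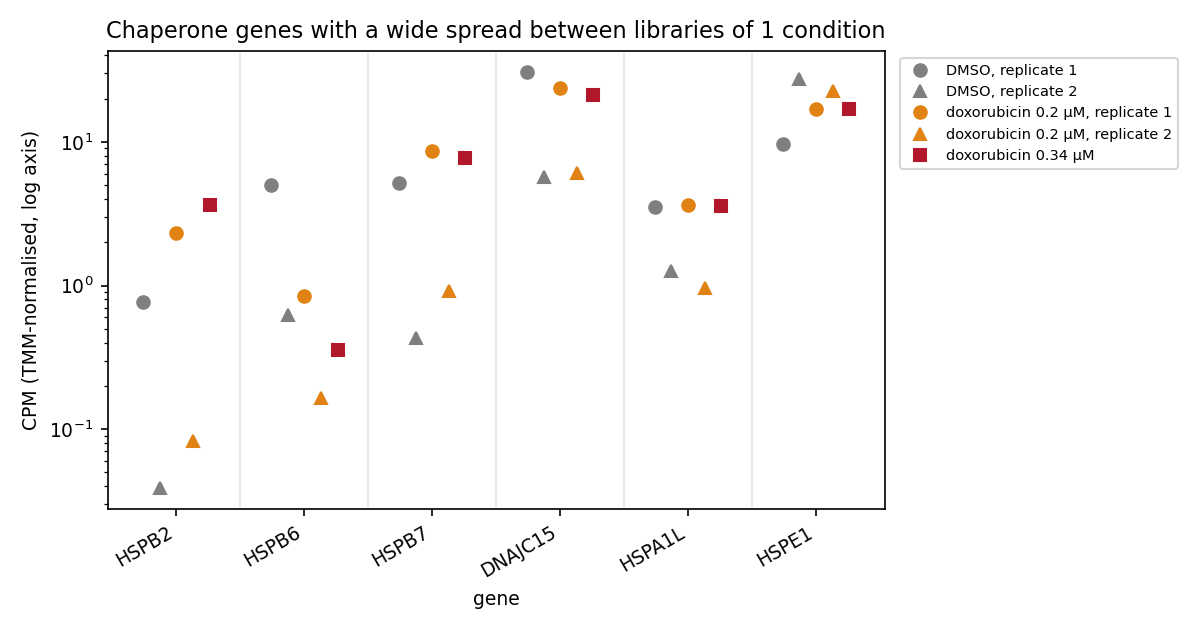
Level in each of the 5 libraries (y axis, CPM on a log scale) of 6 chaperone genes with a wide spread within a treatment (x axis). In HSPB2, HSPB6, HSPB7, DNAJC15 and HSPA1L both triangles, which mark replicate 2 of DMSO and of 0.2 μM, lie below the circles of replicate 1, and in HSPE1 they lie above.

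By family, DNAJB had 9 tested members with 1 called higher, DNAJC 25 with 1 called lower, HSPA 13 with 1 called higher and HSPB 6 with 1 called higher. DNAJA (3 tested), HSP90 (3), HSPD and HSPE (2), HSPH (1) and the group of HSPBP1 and HSPBAP1 (2) had none. Over all genes tested, edgeR called 1.29% higher and 2.73% lower. The median log2 fold change was between -0.33 and 0.083 in each family but HSPB, where it was 0.80 over 6 genes. Of these 6, HSPB2, HSPB6 and HSPB7 were the genes with the wide spread between replicates. The 6 were grouped by name and include HSPB11 (log2 fold change -0.68), which is not a small heat shock protein. All 3 HSP90 genes were below 0.

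The 79 genes together took 1.16% and 1.26% of all counts in the DMSO libraries, 0.955% and 1.09% with 0.2 μM and 0.983% with 0.34 μM. The share was lower in each doxorubicin library. HSP90AA1 alone took 0.177% and 0.265% in DMSO and 0.0914%, 0.121% and 0.0877% with doxorubicin. Without HSP90AA1, HSP90AB1, HSP90B1, HSPA8 and HSPA5, the other 74 genes took 0.446% and 0.464% in DMSO and 0.425%, 0.455% and 0.446% with doxorubicin, so that the treatments overlapped.

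**Figure D5:**
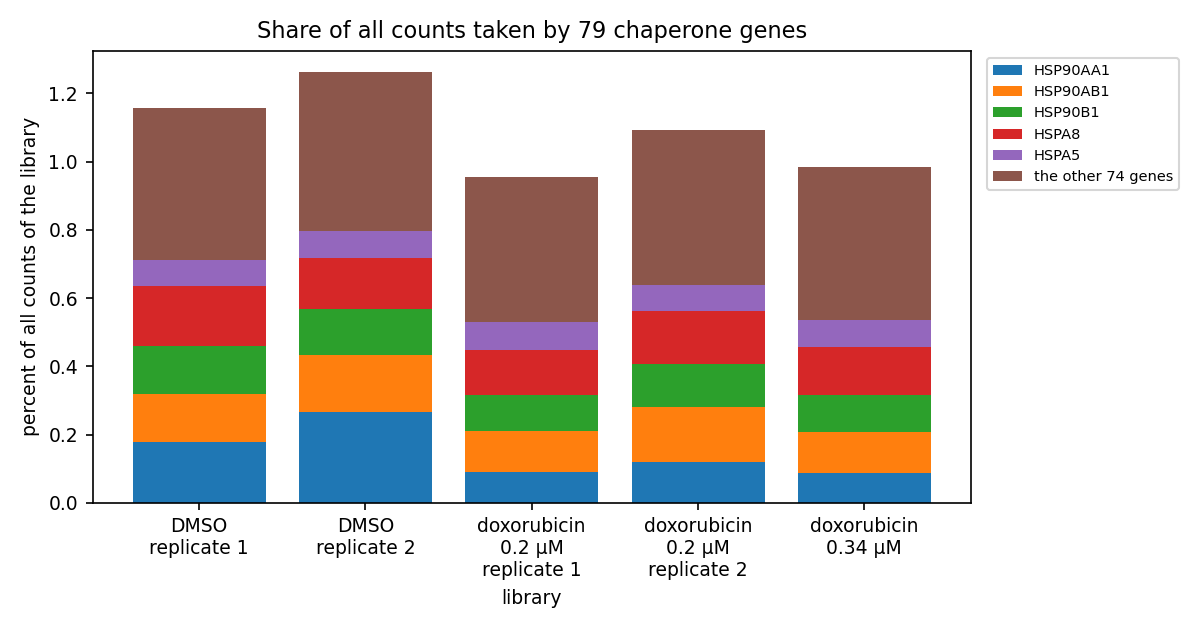
Percent of all counts of each library (y axis, from 0) taken by the 79 chaperone genes, stacked by gene for the 5 most counted. The bars of the 5 libraries (x axis) reach 1.16% and 1.26% in DMSO and between 0.955% and 1.09% with doxorubicin, and the HSP90AA1 segment is the one that differs most.

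The partners of these chaperones were described from lists made by function. Of 19 tested co-chaperones of HSP90, 1 was called lower by edgeR (5.26%), against 2.73% of all genes. The median log2 fold change of the 19 was -0.16. The called gene was FKBP5, an immunophilin of steroid receptor complexes, at 44.3 and 52.8 CPM in DMSO and at 14.0, 14.6 and 12.3 CPM with doxorubicin (log2 fold change -1.83, SE 0.17, edgeR adjusted p = 0.00169). DESeq2 called 5 of the 19 (26.3%), all lower: FKBP5, PTGES3, NUDC, STIP1 and NUDCD2. Over all genes DESeq2 called 8.02% lower. PTGES3 (p23), which closes the HSP90 cycle, was at 370 and 418 CPM in DMSO and at 206, 218 and 194 CPM with doxorubicin (log2 fold change -0.94, SE 0.15, edgeR adjusted p = 0.0102). STIP1 (HOP), which bridges HSP70 and HSP90, was at 240 and 253 CPM against 146, 149 and 145 CPM (log2 fold change -0.75, SE 0.13, edgeR adjusted p = 0.0148). The groups did not overlap in any of these 3 genes.

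Among 15 nucleotide exchange and partner factors of HSP70, none was called by edgeR and the median was 0.070. SIL1, the exchange factor of BiP, was at 23.3 and 17.0 CPM in DMSO and at 42.7, 34.8 and 38.4 CPM with doxorubicin, without overlap (log2 fold change 0.94, SE 0.20, edgeR adjusted p = 0.0284, DESeq2 adjusted p = 0.000482). All 8 subunits of the cytosolic chaperonin TRiC were below 0 with a median of -0.23, none called by edgeR and CCT5 called by DESeq2. None of 9 prefoldin genes and none of 10 mitochondrial protease and import genes was called by either test.

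The doses were compared through the single 0.34 μM library, in a fit in which the DMSO and the 0.2 μM pairs set the spread. No member was called between 0.34 μM and 0.2 μM by edgeR, DESeq2 or limma voom, and 0 members had an unadjusted p under 0.05 by any of them. Over all genes the share called was 0% by each tool, and 22 genes (0.155%) had an unadjusted p under 0.05 in edgeR. The smallest p-values were those of HSPB8 (log2 difference 0.44, SE 0.31), DNAJB2 (log2 difference 0.29, SE 0.26) and HSPB1 (log2 difference 0.45, SE 0.42), each with an adjusted p of 1.0 in edgeR's quasi-likelihood test. In these 3 genes the 0.34 μM library was the highest of all 5. With 1 library at this dose, differences of this size were not detectable.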

How the data were processed

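RNA-seq of 5 RPE1 libraries was analysed from the raw counts of reads per gene that the authors deposited. Per the study's methods and the labels, the authors aligned the paired-end reads with STAR to hg38 and assigned them to genes of the iGenomes annotation with featureCounts of Rsubread, after poly-A selection of the RNA. Tool versions, the strand setting and the handling of reads that map to several places were not given in the sources used here, so reads of overlapping genes cannot be told apart. A deposited table of the authors' own comparison (DESeq2 log2 fold changes and p-values) was not used.

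Groups were taken from the treatment labels. The 3 doxorubicin libraries were compared with the 2 DMSO libraries in R 4.3.3 with edgeR 4.0.16 (quasi-likelihood test with TMM normalization). Of 26485 genes, 14187 passed filterByExpr at its defaults (count at least 10, total at least 15). Genes were called at an adjusted p under 0.01 by the Benjamini-Hochberg method over all genes tested. Joining the doses and the threshold follow the study's methods. The standard error is the size of the log2 fold change over the square root of the test's F. CPM values are TMM-normalised, with a prior count of 2 on the log2 scale. DESeq2 1.42.0, limma voom (limma 3.58.1), other normalizations, filters and thresholds, and leaving out each library were the alternatives. The scripts were tested on simulated data. Libraries of a pair differed far beyond sampling noise (chi-square per degree of freedom of 117 in DMSO and 75.3 at 0.2 μM), so each was counted as a sample. The precision of a level follows from the total of each library, and floors cover counting error only.

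Gene positions, promoters and overlaps are from RefSeq (GRCh38.p14), where all 79 members were found, 1 by an older symbol, and 66 had a promoter. Exon lengths for levels per kilobase are from GENCODE v44 lifted to GRCh37, from which no coordinate was used. Motifs were searched on both strands.

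The members and lists were chosen with earlier results of these data known. The lists come from general knowledge. A list of chaperone family genes under other names is not reported here. The genes named are those called by edgeR or DESeq2, examples by role, the 5 largest rises and falls, the 3 smallest p-values between doses and the untested members. HSPB7, DNAJC15, HSPA1L and the genes outside the chaperone families were named after their values were seen.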

Additional observations from a re-analysis of the deposited data

How the results depend on the processing

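The count of called members was 4, 3 higher and 1 lower, also with RLE or upper quartile normalization and with a minimum count of 50. It was 8 with DESeq2 (6 higher, 2 lower), 2 with limma voom (1 higher, 1 lower), 6 without the filter on low counts (4 higher, 2 lower), 7 at an adjusted p of 0.05 (5 higher, 2 lower) and 0 with the 0.2 μM libraries only (0 higher, 0 lower). Limma voom kept DNAJB2 and DNAJC9, while HSPB8 and HSPA4L were just over its threshold (limma voom adjusted p = 0.0107 and 0.0109). Leaving out 1 library gave 0 to 1 called members (0 higher, 0 to 1 lower). Over all genes the count was 571, against 2073 with DESeq2, 526 with limma voom, 1020 without the filter, 171 with 0.2 μM only and 49 to 215 without 1 library. Fewer libraries leave fewer degrees of freedom, and the cause of the other changes was not tested. The replicate numbers mark no shared day or batch in the labels. Deviations of same-numbered DMSO and 0.2 μM libraries correlated at 0.528 over all genes and 0.813 over the members, with 2 pairs only. In HSPB7, HSPB2, HSPB6, DNAJC15 and HSPA1L both pairs differed widely in the same direction, while 25 of the 64 tested members were mixed. The correlation without these named genes was not computed. With the replicate number as a block in these 4 libraries, 8 members were called (5 higher, 3 lower), adding DNAJC18, DNAJC6, HSP90AA1 and HSPB6 to the 4, against 0 (0 higher, 0 lower) in the same 4 libraries without the block, a fit added after the data were seen. Over all genes that passed the filter in these 4 libraries, the fits called 1249 and 178.

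The members' median log2 fold change lay between -0.061 and 0.059 in all settings. No member was called between the doses in any setting run. The members' mean share of counts was 0.199 percentage points lower with doxorubicin, as a difference of -0.199, and -0.013 without HSP90AA1, HSP90AB1, HSPA8, HSPA5 and HSP90B1.

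Of 407 values of 29 named genes under the alternatives, 355 kept their direction and side of the threshold, 29 lost a call, 10 gained one and 13 changed sign. All sign changes were in 5 uncalled genes near 0. HSPA4 went from -0.04 to 0.0067 with upper quartile normalization, 0.027 with 0.2 μM only, 0.012 with the block, 0.028 in the same libraries without it, and between -0.21 and 0.062 without 1 library. Without 1 library the range was -0.32 to 0.0051 for HSPA8, -0.090 to 0.11 for HSPH1, -0.075 to 0.21 for DNAJB1 and -0.54 to 0.94 for HSPE1. With 2 DMSO libraries and 1 library at 0.34 μM, differences of the size of most members' standard errors were not detectable.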

Other observations

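The following members were chosen after their values were seen, and none was called by edgeR or DESeq2. DNAJB4, a cytosolic J-domain protein, was at 41.6 and 18.9 CPM in DMSO and at 46.7, 54.2 and 46.6 CPM with doxorubicin (log2 fold change 0.70, SE 0.32, edgeR adjusted p = 0.198). DNAJC4 was at 16.5 and 12.9 CPM against 23.0, 20.5 and 24.3 CPM (log2 fold change 0.62, SE 0.19, edgeR adjusted p = 0.0777). DNAJC5, the cysteine string protein of secretory vesicles, was at 65.3 and 104 CPM against 117, 107 and 127 CPM (log2 fold change 0.46, SE 0.22, edgeR adjusted p = 0.211). In these genes each doxorubicin library was above both DMSO libraries. HSPB11, the intraflagellar transport component that carries a heat shock name, was at 22.6 and 21.9 CPM in DMSO and at 11.3, 18.0 and 12.3 CPM with doxorubicin, lower in each library (log2 fold change -0.68, SE 0.24, edgeR adjusted p = 0.104).

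SERPINH1 (HSP47), the collagen chaperone of the endoplasmic reticulum, was at 413 and 217 CPM in DMSO, at 425 and 166 CPM with 0.2 μM and at 369 CPM with 0.34 μM. As for COL1A1, both replicates 2 were the lowest libraries, and the treatments overlapped (log2 fold change 0.02, SE 0.43, edgeR adjusted p = 0.979).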
